A study of Mus musculus with 6 samples.

Results

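Endoderm made from mouse embryonic stem cells was compared before passaging and after 6 passages in 2 co-cultures, and the genes described here are those that moved the same way in both. A gene or unnamed probe was a member when all 4 passaged arrays lay above, or all 4 lay below, both unpassaged arrays. Of 8396 features measured, 2848 met this rule (33.9%), 1429 above (17.0%) and 1419 below (16.9%), and 2644 of them carry a gene name. The 33.9% is the share of the whole table, so membership by itself says little, and the size and test of each change are given below.

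The cells were R1 mouse embryonic stem cells with a Sox17-GFP construct, a green fluorescent reporter for an endoderm transcription factor. Activin A and Wnt3A were given for 6 days, and GFP-positive cells were then collected by fluorescence-activated cell sorting. The unpassaged group (P0, labelled gelatin) was taken after this sort, and the other groups (P6) were passaged 6 times in co-culture with mouse mesenchyme 1 or mouse mesenchyme 2 and harvested from a sort for the same reporter. The 6 arrays are technical duplicates, 2 per group, so each group is 1 culture and p-values measure only the spread between duplicate arrays. All groups share the reporter, the growth factors and the sort. The tissue of origin of either mesenchyme is not stated in the labels, and passage number, time in culture and mesenchyme differ from P0 together and cannot be told apart. Both passaged groups are set against the same 2 P0 arrays, so a peculiarity of the P0 culture would appear as a change shared by both.

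Endoderm is the germ layer that lines the gut and forms the liver, pancreas and lung. Activin A acts through the Nodal pathway and Wnt3A through beta-catenin, and together they take embryonic stem cells through a primitive streak stage to definitive endoderm. Visceral and parietal endoderm surround the early embryo and share Sox17, Gata6 and other factors with it; parietal endoderm is known for laying down a thick basement membrane of laminin and collagen IV. Interferon-stimulated genes are switched on by interferon signalling through short DNA elements in their promoters. Genes of the respiratory chain encode the complexes that pass electrons to oxygen and make ATP.

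Values are the deposited normalized intensities of 1-colour Illumina bead arrays, with array medians between 127.6 and 135.5. Log2 values correlated across probes at 0.9934 to 0.9939 within groups and 0.8748 to 0.9596 between groups; probes are not independent replicates. The gene behind the sort, Sox17, read 103 and 90.6 on the P0 arrays, 83.2 and 80.5 on the mesenchyme 1 arrays, and 722 and 679.9 on the mesenchyme 2 arrays. Its passaged arrays lay on both sides of P0, so it was not a shared change, and groups are named as labelled. A level below is the geometric mean of the 2 arrays, a difference is in log2 units ± the standard error of the limma fit, and bulk RNA cannot tell fewer cells of a kind from less RNA per cell. The lowest intensity in the table was 7.49 and no detection call was used, so dim values may lie at background.

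Most shared differences were small. The mean difference of both P6 groups from P0 was under 0.5 in size for 1339 members, between 0.5 and 1 for 1151, and at least 1 (2-fold) for 358, with a median size of 0.52. A member was called a shared rise or fall when that mean differed from P0 by at least 2-fold at an adjusted p under 0.05 (limma, Benjamini-Hochberg over all 8396 features). There were 165 shared rises (1.97% of all features) and 193 shared falls (2.30%), and 20 of these 358 were unnamed probes. The mean alone was higher for 230 features (2.74%) and lower for 223 (2.66%), so 65 and 30 of those had arrays that overlapped P0.

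A mean of 2-fold did not always mean 2-fold on each mesenchyme. Of the shared rises, 61 reached 2-fold on mesenchyme 1 and 145 on mesenchyme 2, with median differences of 0.88 and 1.72. Of the shared falls, 70 and 167 did, with medians of -0.79 and -1.67. Only 41 rises (0.488% of features) and 44 falls (0.524%) were 2-fold on each. Their sizes could still differ widely: Srgn, 1 of these rises, was 2.42-fold on mesenchyme 1 and 26.6-fold on mesenchyme 2. The smallest mesenchyme 1 difference among the called genes was 0.09 for rises and 0.08 in size for falls.

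**Figure D1:**
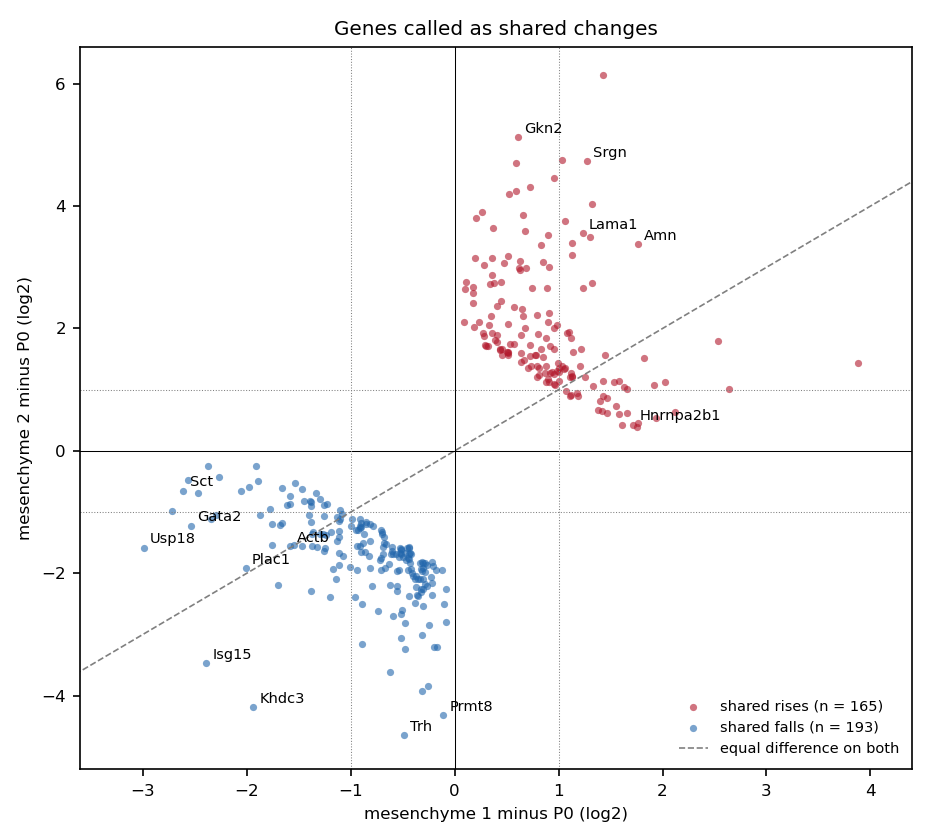
Each point is a gene or unnamed probe called as a shared rise (red, n = 165) or shared fall (blue, n = 193); the horizontal axis is the log2 difference of mesenchyme 1 from P0 and the vertical axis that of mesenchyme 2, dotted lines mark 2-fold and the dashed line equal differences. Both axes use the same P0 arrays and the call requires 1 sign on both, so no point can lie in the other quadrants; most points lie farther from 0 on the vertical axis than on the horizontal one.

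These counts rest on 3 choices in particular. Testing against a 2-fold change, rather than testing for any change and then asking for a 2-fold mean, left 48 rises and 30 falls. Adding 50 to every intensity left 51 rises and 46 falls, of which 1 rise (Lama1) and 5 falls (Actb, Igfbp5, Isg15, Khdc3 and Usp18) were 2-fold on each mesenchyme, and the P0 level was under 50 in 96 of the 165 rises and 29 of the 193 falls. With the 4 passaged arrays fitted as 1 group, so that the spread included the difference between mesenchymes, limma called 0 rises and 0 falls (smallest adjusted p = 0.0989, Actb), against 99 and 111 at an unadjusted p under 0.05.

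The rule's edge shows how thin the separation can be. Among rises, Flrt3, a cell adhesion protein, was just inside, at 227 and 271 on the P0 arrays, 289.5 and 274 on mesenchyme 1 and 1434 and 1233 on mesenchyme 2. Lamc1, the laminin gamma-1 chain, was just outside, at 1150 and 939, then 1157 and 1139, then 4418 and 4688. Ddx58, which encodes the RNA sensor RIG-I, was the closest fall inside, at 152 and 121 in P0, 121 and 102 on mesenchyme 1 and 32.4 and 36.3 on mesenchyme 2, and Cbs, an enzyme of cysteine synthesis, was just outside with 61.9 and 64.8, 33.4 and 63.9, and 18.9 and 23.8. In all 4 the mesenchyme 1 arrays decide the side, since the mesenchyme 2 arrays lie far from P0.

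The rises that were 2-fold on each mesenchyme included genes of extraembryonic endoderm and its basement membrane. Amn, the membrane partner of cubilin in vitamin B12 uptake and a visceral endoderm gene, read 35.6 and 35.8 on the P0 arrays, 113 and 129.7 on mesenchyme 1 and 368 and 377 on mesenchyme 2. The 3 groups did not overlap, and the mean rise was 2.57 ± 0.0844 (5.95-fold, adjusted p = 2.49e-05). Lama1, the laminin alpha-1 chain of the early basement membrane, read 401 and 469 in P0, 1115 and 925 on mesenchyme 1 and 4872 and 5370 on mesenchyme 2. It was by far the brightest of the 15 rises named for their size on both mesenchymes, with a mean rise of 2.39 ± 0.114 (5.26-fold, adjusted p = 4.04e-05), and 4.85-fold with 50 added to every intensity.

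Gata6, a transcription factor of primitive endoderm, read 129.6 and 161 in P0, 309 and 322 on mesenchyme 1 and 1514 and 1541 on mesenchyme 2. Its groups were stepwise apart, with differences of 1.13 and 3.40 on the 2 mesenchymes and a mean of 2.27 ± 0.102 (4.81-fold, adjusted p = 3.52e-05). Srgn, the core protein of an intracellular proteoglycan, read 58.2 and 52.5, then 139 and 129, then 1485 and 1459, which is a mean rise of 3.00 ± 0.0826 (8.03-fold, adjusted p = 1.96e-05). Pdgfra, the PDGF receptor alpha found on primitive endoderm and on mesenchyme, read 67.7 and 69.4 in P0, 152 and 134 on mesenchyme 1 and 950.1 and 891 on mesenchyme 2 (mean 2.40 ± 0.0855, adjusted p = 2.60e-05). For Srgn and Pdgfra, as for Gata6, the lowest passaged array was well clear of the higher P0 array.

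**Figure D2:**
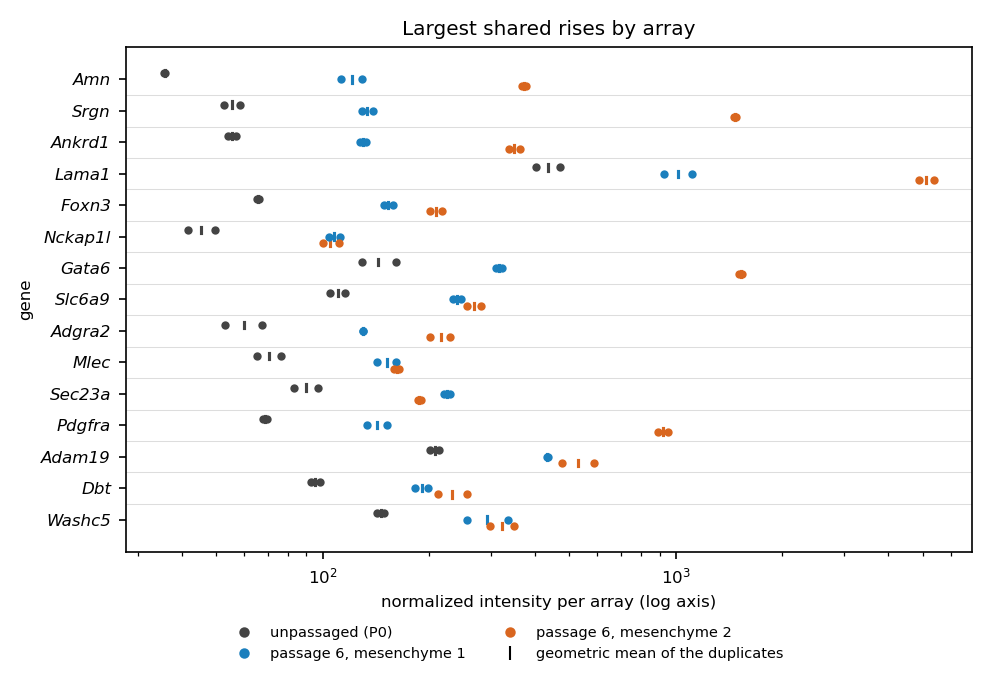
Normalized intensity on a log axis for the 15 shared rises with the largest smaller difference of both mesenchymes and a level of at least 100 in both passaged groups; points are single arrays, coloured by group, and ticks are geometric means of the 2 arrays. All P0 points lie left of all passaged points, and the mesenchyme 2 points lie far to the right of mesenchyme 1 for Srgn, Lama1, Gata6 and Pdgfra but close to them for Nckap1l, Slc6a9 and Mlec.

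Of 33 measured genes on the parietal endoderm list, 15 lay above P0 on all passaged arrays (45.5%, against 17.0% of all features) and 2 below, Lgals3 and Vim. Of these, 13 were called as shared rises and none as a fall, and 5 rose 2-fold on each: Aqp8, Srgn, Lama1, Gata6 and Pdgfra. Aqp8, a water channel, read 9.86 and 9.46 in P0, 28.7 and 23.7 on mesenchyme 1 and 681 and 693 on mesenchyme 2 (mean 3.79 ± 0.0972, 13.9-fold; 3.97-fold with 50 added). The first 4 of these arrays are so dim that the mesenchyme 1 step may lie at background. The list median was 1.14 for the mean of both mesenchymes, but 0.02 on mesenchyme 1 and 2.56 on mesenchyme 2, beside 0.01 for the mean over all features. The summed intensity was 13159 to 13436 in P0, 12346 to 12469 on mesenchyme 1 and 55986 to 56307 on mesenchyme 2. On mesenchyme 1 the list as a whole was thus not higher than in P0. The list was written with these data known, so its direction is no independent evidence.

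The basement membrane and matrix list had 9 of 36 members above P0 on all passaged arrays (25.0%, against 17.0% of all features) and 2 below, with 6 called rises, 4 of them 2-fold on each mesenchyme, and 0 called falls. Besides Lama1 these were Itgav, the integrin alpha-V subunit that binds matrix proteins, Adam19, a membrane metalloprotease, and Hapln4, a link protein of hyaluronan matrix. Itgav read 15.7 and 18.4 in P0, 109 and 89.3 on mesenchyme 1 and 59.0 and 58.8 on mesenchyme 2, so it was higher on mesenchyme 1 than on mesenchyme 2, by less than 2-fold (mean over P0 2.16 ± 0.111, 4.48-fold). Adam19 read 213 and 202, then 431 and 434, then 588 and 476 (mean 1.20 ± 0.102, 2.30-fold), with passaged groups that lay near each other. With 50 added to every intensity, Itgav stood at 0.92 and Hapln4 at 0.42, and both lost their calls. The median of this list was -0.03 on mesenchyme 1 and 0.85 on mesenchyme 2.

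Of 23 visceral endoderm genes, 3 lay above (13.0%, below the 17.0% of all features) and 1 below, and Amn and Afp were the 2 called rises. The list as a whole went opposite ways, with a median of -0.34 on mesenchyme 1 and 1.93 on mesenchyme 2. Its summed intensity was 9690 to 9805 in P0, 7859 to 7893 on mesenchyme 1 and 23510 to 24200 on mesenchyme 2. Afp, the alpha-fetoprotein of yolk sac and fetal liver, read 21.7 and 30.5 in P0, 64.0 and 64.4 on mesenchyme 1 and 415 and 432 on mesenchyme 2 (mean 2.68 ± 0.136, 6.41-fold; 3.06-fold with 50 added). Tfrc, the transferrin receptor on the same list, was called as a fall with 3152 and 3128 in P0, 2975 and 2967 on mesenchyme 1 and 647 and 663 on mesenchyme 2. Its mesenchyme 1 difference was only -0.08, and with the mean of its 2 probes it was 0.03, so the fall was carried by mesenchyme 2. Of 16 definitive endoderm genes, 3 lay above and 3 below (18.8% each, near the shares of all features), with Gata6 and Sox7 called as rises and Trh as a fall. Sox7, a relative of Sox17, read 32.3 and 27.1 in P0, 44.4 and 47.0 on mesenchyme 1 and 244 and 215 on mesenchyme 2.

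A further set of rises differed by less than 2-fold between the mesenchymes. Nckap1l, a subunit of the actin-regulating WAVE complex best known from blood cells, read 41.7 and 49.5 in P0, 104 and 112 on mesenchyme 1 and 111 and 100.3 on mesenchyme 2. Its passaged groups overlapped each other and neither overlapped P0 (mean 1.23 ± 0.101, adjusted p = 2.35e-04). Slc6a9, the glycine transporter GlyT1, read 116 and 105, then 234 and 246, then 257 and 281 (mean 1.20 ± 0.0865, adjusted p = 1.45e-04). Mlec, the sugar-binding protein malectin of the endoplasmic reticulum, read 76.4 and 65.1, then 161 and 143, then 159 and 165 (mean 1.15 ± 0.0991, adjusted p = 2.58e-04; 0.90 with the mean of its 3 probes).

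Sec23a, a coat protein of vesicles that leave the endoplasmic reticulum, read 97.2 and 83.2 in P0, 221 and 230 on mesenchyme 1 and 189.9 and 186 on mesenchyme 2 (mean 1.19 ± 0.0894). Dbt, a subunit of the enzyme complex that breaks down branched-chain amino acids, rose by 1.14 ± 0.102, from 92.7 and 98.4 to 199 and 183 and to 256 and 212. Washc5, a subunit of the endosomal WASH complex, rose by 1.07 ± 0.127, from 149 and 143 to 334 and 256 and to 297 and 349, and stood at 0.97 without mesenchyme 1 replicate 1, just short of the 2-fold limit. Foxn3, a forkhead repressor, rose by 1.22 on mesenchyme 1 and 1.67 on mesenchyme 2, and Adgra2, a co-receptor for Wnt7 ligands, by 1.12 and 1.85. The difference between mesenchymes was not called for any of these 8 genes. For Foxn3 and Adgra2 it passed the limma test (adjusted p = 0.00365 and 0.00231) but was under 2-fold. Ankrd1, a target of the YAP pathway, rose by 1.23 and 2.66, from 56.9 and 54.0 to 133 and 128 and to 337 and 362. With 50 added, Foxn3, Nckap1l, Slc6a9, Adgra2, Mlec, Sec23a, Dbt and Washc5 stood between 0.71 and 0.99 and lost their calls.

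Single lysosome and gut genes were called as rises. Of 38 lysosome and endocytosis genes, 8 lay above (21.1%, near the 17.0% of all features) and 1 below, and 3 were called rises: Amn, Ctsl and Ctsa. Ctsl, the protease cathepsin L, read 50.8 and 43.5 in P0, 61.1 and 73.1 on mesenchyme 1 and 444 and 415 on mesenchyme 2, so its mesenchyme 1 step was 0.51 against 3.19. Of 13 genes of stomach and gut epithelium, 3 lay above (23.1%, near the 17.0% of all features) and 1 below (7.7%, against 16.9%). Those above, Aqp8, Gkn2 and Muc13, were called rises, and Sct was called a fall. The median of this list was 0.13 on mesenchyme 1 and 1.89 on mesenchyme 2. Gkn2, a gastrokine secreted by the stomach lining, read 67.0 and 66.6, then 109 and 95.8, then 2401 and 2280. Its groups did not overlap, with 0.61 on mesenchyme 1 and 5.13 on mesenchyme 2. Muc13, a membrane mucin, read 22 and 23.1, then 26.3 and 32.8, then 161 and 141, and its other probe overlapped P0 on the passaged arrays.

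Part of the list of amino acid response and endoplasmic reticulum stress genes was higher on both mesenchymes by small steps. Of 34 measured members, 15 lay above P0 on all passaged arrays (44.1%, against 17.0%) and 3 below (Hsp90b1, Sesn2 and Stc2), while 16 overlapped P0, and 14 of the 15 had an adjusted p under 0.05 without the fold limit. The list median was 0.22 on mesenchyme 1 and 0.39 on mesenchyme 2. Vldlr and Nupr1 were the 2 called rises. Vldlr, a lipoprotein receptor, read 221 and 223 in P0, 382 and 396 on mesenchyme 1 and 578 and 564 on mesenchyme 2 (mean 1.09 ± 0.0721, adjusted p = 1.13e-04; 0.94 with 50 added), and all 3 of its probes lay above. Nupr1, a stress-induced nuclear protein, read 494 and 505, then 549.7 and 581, then 3081 and 2909, so nearly all of its rise was on mesenchyme 2.

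Of the 15 members above P0, 7 encode transfer RNA synthetases (Aars, Eprs, Gars, Iars, Nars, Sars and Wars). These, Atf4 and Hspa5 were picked out after their values were seen. Further synthetase genes of the list overlapped P0: Lars (0.19 on mesenchyme 1 and -0.41 on mesenchyme 2), Tars (0.47 and 0.11) and Yars (-0.26 and -0.04). Eprs, which charges glutamate and proline transfer RNA, read 216 and 219 in P0, 387 and 374 on mesenchyme 1 and 330.3 and 377 on mesenchyme 2 (mean 0.75 ± 0.0847, adjusted p = 6.77e-04). Nars, the asparagine enzyme, read 386 and 389, then 593 and 593, then 621 and 655 (mean 0.67 ± 0.073). Atf4, the transcription factor of the amino acid response, read 290.2 and 280.1, then 367 and 355, then 328 and 376 (mean 0.32 ± 0.086, adjusted p = 0.0198). The passaged arrays of all 3 genes lay close together whichever mesenchyme they came from. Hspa5, the chaperone BiP, differed by 0.42 ± 0.0857 on the mean. The number of members above P0 was 15 with median centring, quantile normalization or a mean intensity of at least 50, and 16 with the mean of all probes. Added intensities and other fits cannot change this number, and leaving out an array cannot lower it.

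**Figure D3:**
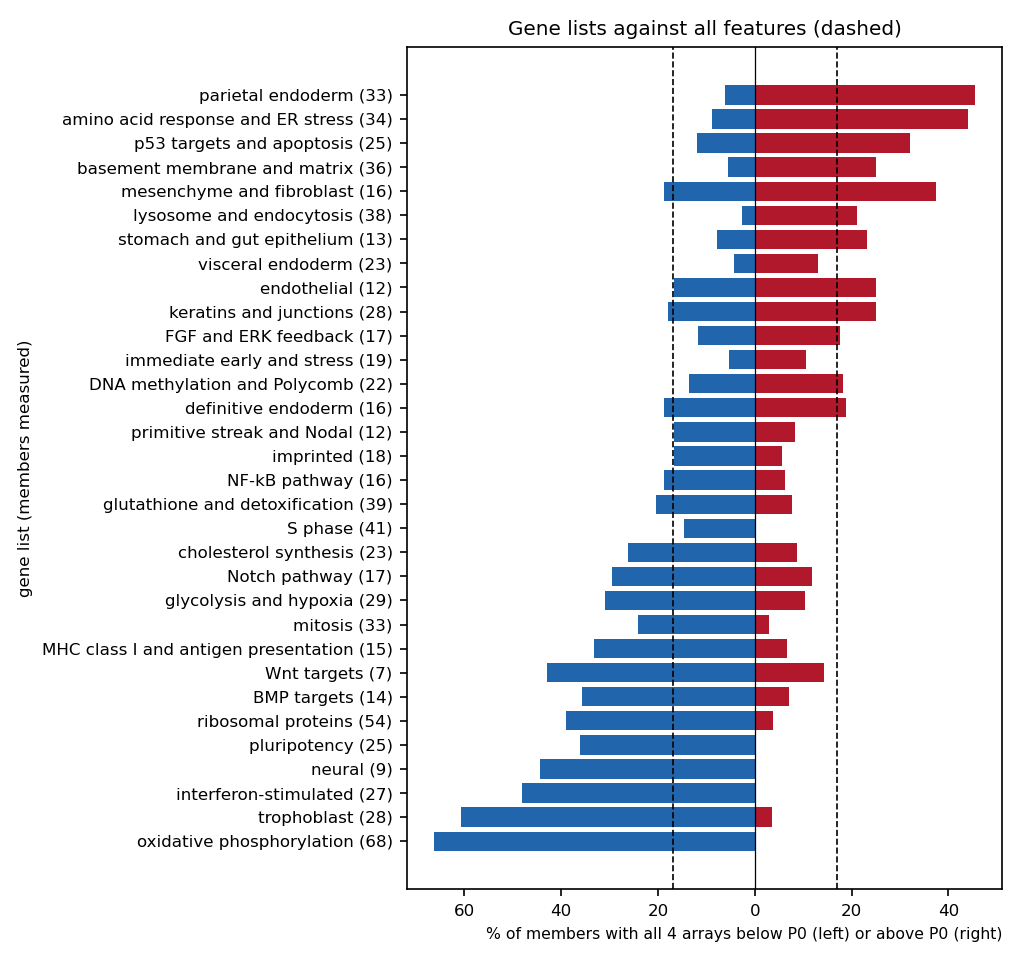
For each gene list with at least 5 measured members (number in brackets), bars give the percentage of members whose 4 passaged arrays all lay above both P0 arrays (red, to the right) or all below (blue, to the left); dashed lines are the shares of all features, 17.0% and 16.9%. The highest share above is that of the parietal endoderm list at 45.5%, and the highest share below that of oxidative phosphorylation at 66.2%; lists share some genes and were written with these data known.

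Interferon-stimulated genes fell on both mesenchymes in part of the list. Of 27 measured members, 13 lay below P0 on all passaged arrays (48.1%, against 16.9% of all features) and 0 above, and 9 were called as shared falls. Isg15, Usp18 and Ifi27 fell 2-fold on each mesenchyme, and Oas1g, Oasl2, Ddx58, Gbp2, Ifitm1 and Ifitm2 on the mean. Ddx58 stood at -0.97 without P0 replicate 1, short of the limit. The list median was -0.46 on mesenchyme 1 and -1.32 on mesenchyme 2, and the summed intensity of the list was 11055 to 11503 in P0, 8009 to 8024 on mesenchyme 1 and 4996 to 5099 on mesenchyme 2. The sums of the 3 groups did not overlap.

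The promoters of 2 of these genes are shown because their falls were among the larger ones of the list and both hold AANNGAAA, the core that interferon regulatory factors recognise, in capitals (on the opposite strand it reads TTTCNNTT). They are RefSeq sequences of GRCm38.p6, from 250 bases before to 50 bases after the gene's start and written 5′ to 3′ on the gene's strand: Isg15 at chr4:156200769-156201068 on the minus strand and Oas1g at chr5:120887564-120887863 on the minus strand. Isg15 holds 4 matches between bases 123 and 194 of the window and Oas1g holds 3 between bases 108 and 248, counted from the window's 5′ end. In each gene the first match is on the opposite strand, and the others overlap each other in a run.
Isg15: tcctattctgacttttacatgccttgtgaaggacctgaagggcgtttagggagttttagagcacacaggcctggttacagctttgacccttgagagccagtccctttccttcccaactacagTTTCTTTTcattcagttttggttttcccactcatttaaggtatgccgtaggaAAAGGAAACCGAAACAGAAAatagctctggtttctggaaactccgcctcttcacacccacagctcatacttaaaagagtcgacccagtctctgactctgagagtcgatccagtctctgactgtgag
Oas1g: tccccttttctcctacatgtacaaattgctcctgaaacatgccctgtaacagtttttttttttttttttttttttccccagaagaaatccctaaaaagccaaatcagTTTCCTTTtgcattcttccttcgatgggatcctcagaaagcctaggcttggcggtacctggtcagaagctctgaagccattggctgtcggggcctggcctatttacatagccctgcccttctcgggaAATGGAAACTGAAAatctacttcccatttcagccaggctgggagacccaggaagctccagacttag

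The letters were searched on both strands in all promoters of that length. These letters are common: a match was present in 26.67% of 27025 genes. It was present in 14 of the 24 list genes with a promoter in the table (58.3%), and 8 of the 14 were among the 11 such genes whose arrays lay below P0. A match is a description of the letters and not a site shown to be bound.

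Isg15 encodes an interferon-induced, ubiquitin-like protein that is attached to other proteins. It read 143 and 126 on the P0 arrays, 27.1 and 24.5 on mesenchyme 1 and 11.2 and 13.2 on mesenchyme 2. The groups lay stepwise apart, and the mean fall was -2.93 ± 0.105 (7.62-fold lower, adjusted p = 2.60e-05), although the passaged values are close to the lowest in the table and the fold was 2.69 with 50 added. Usp18, the protease that removes ISG15 and damps interferon receptor signalling, read 339 and 377 in P0, 46.3 and 43.8 on mesenchyme 1 and 125 and 114 on mesenchyme 2. Here mesenchyme 1 was the lower of the passaged groups, with a mean of -2.29 ± 0.0878 (4.88-fold lower, adjusted p = 2.78e-05), and all 3 probes of the gene lay below. Ifi27, a small interferon-induced protein, read 299 and 302, then 129.5 and 135, then 119 and 119.6, nearly the same on both mesenchymes (mean -1.26 ± 0.0721).

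Oas1g, which belongs to a family of closely similar synthetases that activate RNase L, read 271 and 283 in P0, 144 and 141 on mesenchyme 1 and 50.2 and 55.8 on mesenchyme 2 (mean -1.67 ± 0.0811, 3.19-fold lower). Its probes may also bind its near copies. Of the factors that act in interferon signalling, Irf9 read 138 and 128, then 85.2 and 94.0, then 109 and 92.1, and Stat2 read 49.9 and 58.9, then 36.1 and 35.0, then 28.0 and 34.1. Both lay below P0 on all passaged arrays by less than 2-fold, at -0.49 ± 0.0994 and -0.71 ± 0.112. A second, dimmer probe of Irf9 overlapped P0, with 0.34 on mesenchyme 1 and -0.50 on mesenchyme 2, so a shared fall of Irf9 rests on 1 probe. Jak3, a kinase of cytokine receptors that is not on the list, read 125 and 113, then 45.6 and 46.5, then 33.4 and 49.0 (mean -1.46 ± 0.151, adjusted p = 4.88e-04). With 50 added to every intensity neither Ifi27 nor Jak3 kept its call, and the mean of Jak3 stood at -0.85.

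**Figure D4:**
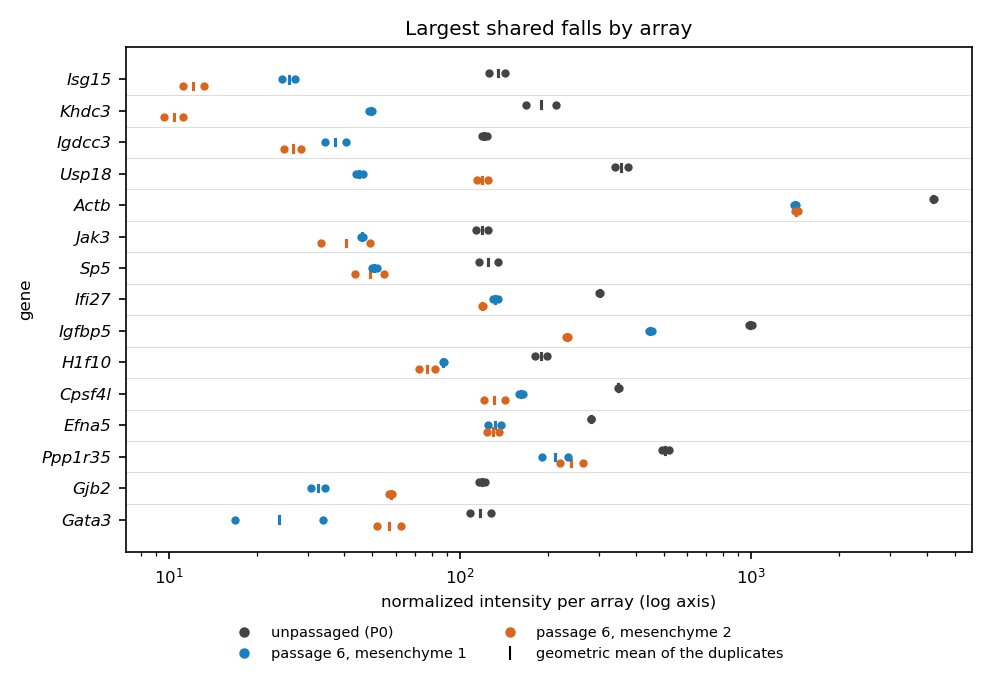
Normalized intensity on a log axis for the 15 shared falls with the largest smaller difference of both mesenchymes and a P0 level of at least 100; points are single arrays, coloured by group, and ticks are geometric means of the 2 arrays. All P0 points lie right of all passaged points; the passaged groups nearly coincide for Actb, Sp5, Ifi27 and Efna5, mesenchyme 2 is lower for Isg15, Khdc3 and Igfbp5, and mesenchyme 1 is lower for Usp18, Gjb2 and Gata3.

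Genes of trophoblast, the outer layer of the embryo that forms the placenta, made up a further group of falls. Of 28 measured, 17 lay below P0 on all passaged arrays (60.7%, against 16.9% of all features) and 1 above, the protease gene Mmp9, and 13 were called falls, 5 of them 2-fold on each mesenchyme: Plac1, Tfap2a, Gata2, Dlx3 and Gata3. Gata3, a zinc finger factor of trophoblast, read 108 and 128 in P0, 16.9 and 33.8 on mesenchyme 1 and 62.6 and 52.0 on mesenchyme 2. The mesenchyme 1 duplicates lay far apart, but both were below mesenchyme 2, and all passaged arrays were below P0 (mean -1.67 ± 0.26, adjusted p = 0.00236). Gata2, its relative, read 93.2 and 78.8, then 12.9 and 16.8, then 30.7 and 43.9 (mean -1.88 ± 0.175).

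Plac1, a placental membrane protein, read 67.3 and 73.8 in P0, 17.5 and 17.4 on mesenchyme 1 and 23.1 and 15.2 on mesenchyme 2 (mean -1.96 ± 0.162, 3.90-fold lower). The homeobox gene Dlx3 read 63.7 and 58.9, then 15.5 and 9.45, then 27.0 and 29.7, and Tfap2a, an AP-2 factor, read 44.0 and 41.1, then 19.4 and 14.9, then 15.3 and 13.4. All of these are dim in P0 and dimmer after passaging: with 50 added Gata3, Gata2, Plac1, Dlx3 and Tfap2a stood at -0.90, -0.85, -0.82, -0.67 and -0.49 and lost their calls. The list's median was -1.32 on mesenchyme 1 and -0.60 on mesenchyme 2, the reverse of the order on the interferon list, yet its summed intensity was 17617 to 18605 in P0, 11181 to 11337 on mesenchyme 1 and 20960 to 22057 on mesenchyme 2. The sum on mesenchyme 2 was thus above P0 through members outside the shared set. Sum and median went opposite ways on that mesenchyme, and a sum follows the brightest members.

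The BMP target list, which holds Gata2, Gata3 and Dlx3 too, had 5 of 14 members below (35.7%, against 16.9% of all features) and 1 above, with 4 called falls and 1 called rise. Nbl1, a secreted BMP antagonist, read 61.3 and 66.8, then 12.8 and 9.06, then 51.6 and 40.9, a fall largely of mesenchyme 1 (-2.57 against -0.48). Fst, the activin-binding protein follistatin, was the rise, with 25.3 and 23 in P0, 45.1 and 40.6 on mesenchyme 1 and 269 and 229.5 on mesenchyme 2. Among 28 keratin and junction genes, 7 lay above and 5 below (25.0% and 17.9%, against 17.0% and 16.9% of all features), with 4 called falls and 1 called rise, the desmosomal cadherin Dsg2. Gjb2, the gap junction protein connexin 26, read 122 and 116, then 34.4 and 30.8, then 57.0 and 58.3 (mean -1.46 ± 0.0815, 2.75-fold lower). The other falls were the tight junction genes Cldn3 (-1.68 and -1.21 on the 2 mesenchymes) and Tjp3 (-1.30 and -0.78) and the keratin Krt7 (-1.98 and -0.59). Dsg2 stood at 0.86 without P0 replicate 1 and 0.99 without mesenchyme 2 replicate 1, and Tjp3 at -0.98 without mesenchyme 1 replicate 2 or mesenchyme 2 replicate 1, each short of the limit.

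**Figure D5:**
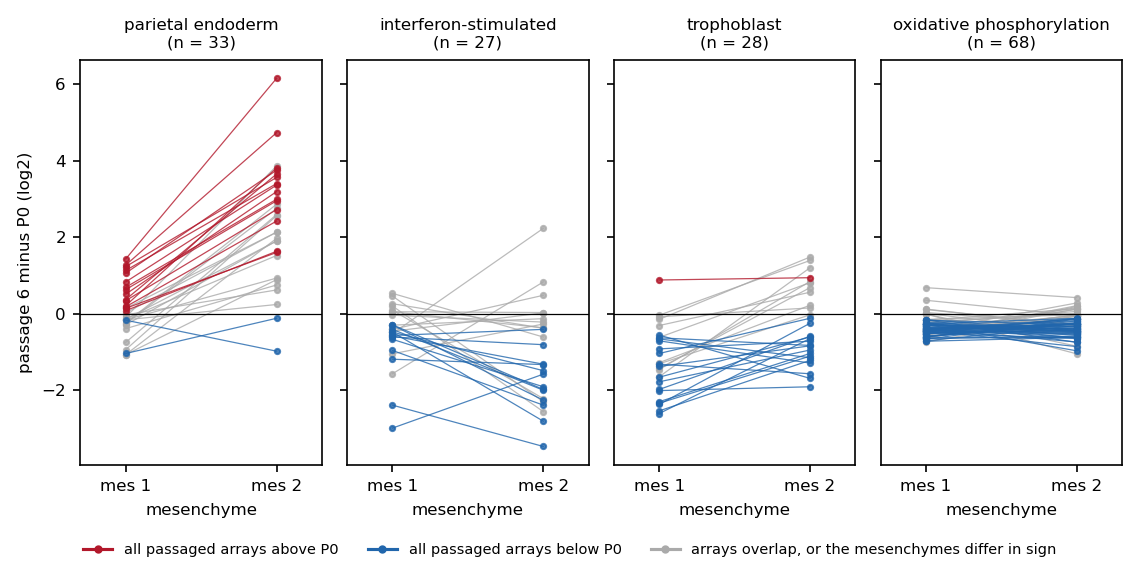
Each line is a measured member of the list named above the panel (33, 27, 28 and 68 genes), joining its log2 difference from P0 on mesenchyme 1 (mes 1) with that on mesenchyme 2 (mes 2); red and blue lines are members whose passaged arrays all lay above or all below both P0 arrays, grey lines the rest. Parietal endoderm members fan upward on mesenchyme 2, blue interferon-stimulated lines mostly slope down, blue trophoblast lines mostly slope up toward 0, and the oxidative phosphorylation members form a narrow band just below 0 on both; both ends of a line use the same P0 arrays.

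Sp5, a transcription factor and direct target of Wnt signalling, read 116 and 135 in P0, 51.9 and 49.8 on mesenchyme 1 and 54.6 and 43.7 on mesenchyme 2. The passaged groups overlapped each other and lay clear of P0, with a mean of -1.33 ± 0.116 (2.51-fold lower, adjusted p = 2.70e-04; -0.81 with 50 added). Of 7 Wnt targets measured, 3 lay below P0 (42.9%, against 16.9% of all features), all called falls, and 1 above, the cyclin gene Ccnd2. On mesenchyme 1 the median of these targets was 0.01, against -1.36 on mesenchyme 2. The Sp5 promoter (RefSeq, GRCm38.p6, chr2:70474673-70474972, plus strand, 250 bases before to 50 after the start) is shown because Wnt3A was part of the treatment before P0; capitals mark the only match, at bases 147 to 154, to CTTTGATC, a core of TCF/LEF binding sites.
Sp5: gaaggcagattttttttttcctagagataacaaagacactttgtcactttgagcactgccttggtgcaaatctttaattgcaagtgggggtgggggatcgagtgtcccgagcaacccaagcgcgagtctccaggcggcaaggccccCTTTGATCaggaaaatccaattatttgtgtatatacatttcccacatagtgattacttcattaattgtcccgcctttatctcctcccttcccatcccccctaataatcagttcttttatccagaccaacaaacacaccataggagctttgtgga

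These letters were found on either strand in promoters of 1.09% of 27025 genes and of 2 of the 3 list genes with a promoter, Sp5 and Tnfrsf19. Tnfrsf19, a receptor of the TNF family, read 97.9 and 101, then 65.5 and 66.5, then 32.8 and 28.9 (mean -1.14 ± 0.0833). Ccnd1, cyclin D1, read 921 and 996, then 816 and 889.9, then 119 and 91.2. The fall of Ccnd1 was thus one of mesenchyme 2 (-3.20, against -0.17 on mesenchyme 1), and 2 further probes of the gene overlapped P0.

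Pluripotency genes were lower in part. Of 25 measured, 9 lay below P0 (36.0%, against 16.9% of all features) and 0 above, and Klf2, Tcl1, Eras and Gdf3 were the called falls, none of them 2-fold on each mesenchyme. On mesenchyme 1 the list median was -0.03, against -1.11 on mesenchyme 2. The summed intensity was 47905 to 48180 in P0, 45705 to 47309 on mesenchyme 1 and 28769 to 29683 on mesenchyme 2. The list as a whole was thus far lower on mesenchyme 2 and little changed on mesenchyme 1. Klf2, a transcription factor of naive pluripotency, read 1097 and 1327 in P0, 602 and 657 on mesenchyme 1 and 320.4 and 305 on mesenchyme 2 (mean -1.44 ± 0.101, adjusted p = 1.34e-04). Tcl1, a co-activator of the AKT kinase, read 1003 and 1047, then 557 and 583, then 427 and 466 (mean -1.02 ± 0.0796), and stood at -0.99 without P0 replicate 2 or mesenchyme 2 replicate 1. Both genes fell on each mesenchyme with no overlap of groups. Eras, a Ras protein of embryonic stem cells, and Gdf3, a Nodal-related ligand, differed by -0.51 and -0.22 on mesenchyme 1 against -2.60 and -2.16 on mesenchyme 2.

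The gene with the largest mean fall among those named, Khdc3, belongs to a maternal complex of oocytes and is active in embryonic stem cells. It read 168 and 213 in P0, 48.8 and 49.9 on mesenchyme 1 and 9.66 and 11.2 on mesenchyme 2 (mean -3.06 ± 0.118, 8.36-fold lower, adjusted p = 2.78e-05; 3.09-fold with 50 added). Igfbp5, a binding protein of insulin-like growth factors, read 1002 and 978, then 455 and 444, then 234 and 231 (mean -1.62 ± 0.0718, 3.06-fold lower). Both fell in steps from P0 to mesenchyme 1 to mesenchyme 2, with no overlap at any step.

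In several falls the difference between mesenchymes was under 2-fold. Igdcc3, an immunoglobulin-type membrane protein, read 124 and 119, then 40.6 and 34.3, then 24.9 and 28.5 (mean -1.95 ± 0.102, adjusted p = 5.73e-05), somewhat lower on mesenchyme 2. Efna5, the guidance ligand ephrin-A5, read 281 and 281, then 125 and 138, then 136 and 124 (mean -1.11 ± 0.0841, adjusted p = 1.74e-04). H1f10, a linker histone, fell by 1.11 and 1.31 on the 2 mesenchymes, Cpsf4l, a relative of a messenger RNA cleavage factor, by 1.11 and 1.41, and Ppp1r35, a centriole protein, by 1.26 and 1.07. Without overlap with P0, the passaged groups of Efna5 and Ppp1r35 overlapped each other. With 50 added Efna5 and H1f10 stood at -0.87 and -0.86.

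Actb, the cytoskeletal beta-actin gene, was the brightest of the largest falls and shows how much can hang on a probe. Its brightest probe read 4215 and 4220 in P0, 1419 and 1401 on mesenchyme 1 and 1444 and 1411 on mesenchyme 2 (mean -1.57 ± 0.0713, 2.97-fold lower, adjusted p = 3.52e-05). The other 4 probes disagreed: 2 differed by -2.78 and -2.81 on mesenchyme 1 and -3.71 and -3.81 on mesenchyme 2, 1 lay above P0 by 0.16 and 0.11, and 1 overlapped P0. A fall of the transcript as a whole is therefore not shown. Of 22 named called genes with several probes, 16 had every probe on the same side of P0, and Hnrnpa2b1, Actb, Ccnd1, Tfrc, Vegfa and Muc13 did not.

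Neural and glycolytic genes gave smaller sets. Of 9 neural genes 4 lay below (44.4%, against 16.9% of all features) and 0 above, and Gap43 and Mapt, the growth cone and microtubule proteins of neurons, fell 2-fold on each mesenchyme. Gap43 read 101 and 94.4, then 40.2 and 42.3, then 38.0 and 37.0 (mean -1.31 ± 0.0764), and Mapt 85.8 and 84.4, then 28.4 and 25.6, then 40.6 and 34.9 (mean -1.42 ± 0.0942); with 50 added both stood at -0.72. Stmn2, a further tubulin-binding protein of neurons, read 578 and 603, then 545 and 570.4, then 89.7 and 81.4, a fall of mesenchyme 2. The neural list had a median of -0.03 on mesenchyme 1 and -1.38 on mesenchyme 2. Its summed intensity was 2675 to 2809 in P0, 3124 to 3364 on mesenchyme 1 and 674 to 678 on mesenchyme 2. The glycolysis and hypoxia list had a median of -0.03 on mesenchyme 1 and -1.03 on mesenchyme 2. Of its 29 measured genes, 9 lay below (31.0%, against 16.9%) and 3 above, with Hk1, Egln1 and Aldoc called falls and Vegfa a called rise.

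Hk1, hexokinase 1, read 94.3 and 84.3, then 24.0 and 28.9, then 36.4 and 41.6 (mean -1.48 ± 0.112; -0.76 with 50 added) and was the only 1 of these that changed 2-fold on each mesenchyme. Egln1, an oxygen-sensing hydroxylase, fell by 0.91 and 1.22, with a mean of -0.99 without P0 replicate 2. Vegfa, the vascular growth factor, rose by 0.44 and 1.65, with a mean of 0.97 without P0 replicate 2 and a further probe that overlapped P0.

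Most oxidative phosphorylation genes were lower in both passaged cultures by well under 2-fold. Of 68 measured, 45 lay below P0 on all passaged arrays (66.2%, against 16.9% of all features), 0 lay above, and 43 of the 45 had an adjusted p under 0.05 without the fold limit. None reached 2-fold, so none is among the called falls. Differences of the 45 ran from -0.67 (Atp5o) to -0.19, and the list medians were -0.41 on mesenchyme 1 and -0.31 on mesenchyme 2. Most members are bright: 56 of the 68 were in the brightest of 4 equal classes of features, where 39 lay below P0 (19.9% of all features in that class did). In total 53 of the 68 had lower group means on both mesenchymes, and the difference between mesenchymes was called for 1 of the 68.

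Members of every respiratory complex were among them. Those below P0 numbered 22 of 32 for complex I, 2 of 3 for complex II, 6 of 7 for complex III, 7 of 12 for complex IV and 8 of 13 for the ATP synthase, with median differences of -0.37, -0.40, -0.39, -0.35 and -0.32. The 1 measured cytochrome c gene was not below, at 0.55. The summed intensity of the list was 120703 to 120828 in P0, 93561 to 95544 on mesenchyme 1 and 96250 to 97896 on mesenchyme 2, which shows a lower total in both passaged cultures with little spread between duplicates. The number below was 49 with median centring, 46 with quantile normalization, 46 with the mean of all probes and 45 with a mean intensity of at least 50. Added intensities and other fits cannot change this number, and leaving out an array cannot lower it.

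Atp5o, an ATP synthase subunit with the largest shared difference of the list, read 202 and 226 in P0, 129 and 131 on mesenchyme 1 and 134 and 145 on mesenchyme 2 (-0.67 ± 0.0847, adjusted p = 0.00107), and Ndufb4, a complex I subunit, read 187 and 162, then 124 and 119, then 128 and 134 (-0.46 ± 0.0884, adjusted p = 0.00533). In both genes the mesenchymes gave nearly the same value. Of the 2 brightest members below P0, Atp5g3, another ATP synthase subunit, read 8253 and 7637, then 6601 and 5542, then 4571 and 4937. Cox8a, a cytochrome oxidase subunit, read 3884 and 4589, then 3030 and 3039, then 3856 and 3844, so that its mesenchyme 2 arrays lay just under the lower P0 array.

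Ribosomal protein genes moved less. Of 54 measured, 21 lay below (38.9%, against 16.9% of all features) and 2 above, 15 of the 21 with an adjusted p under 0.05, and the median was -0.14 on mesenchyme 1 and -0.16 on mesenchyme 2. The number below ran from 16 with quantile normalization to 30 without P0 replicate 2. The brightest pair that did not overlap went opposite ways: Rplp1 differed by 0.19 ± 0.0822 (adjusted p = 0.0919) and Rpl9 by -0.16 ± 0.0825 (adjusted p = 0.137), neither past the test. Of the cell cycle genes, 6 of 41 S phase genes (14.6%) and 8 of 33 mitosis genes (24.2%) lay below, against 16.9% of all features, 0 and 1 lay above, against 17.0%, and none was called. Cenpa, the centromere histone, read 3246 and 3414, then 2541 and 2513, then 2042 and 1704 (mean -0.62 ± 0.0952, adjusted p = 0.00224). Cdc20, an activator of the mitotic ubiquitin ligase, read 1472 and 1583, then 1175 and 1185, then 831 and 858 with its brightest probe, while its other 3 probes overlapped P0. Among S phase genes, Fen1, a flap nuclease, differed by -0.04 on mesenchyme 1 and -0.99 on mesenchyme 2, and Gins4, a replication helicase subunit, by -0.19 and -0.23.

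The size of the shared change differed between the mesenchymes in most called genes, a comparison that uses no P0 array. Of the 358 called genes, 207 differed at least 2-fold between the passaged groups at an adjusted p under 0.05 (57.8% of them, against 25.4% of all features). The 358 were chosen through the same passaged arrays, by a mean that 1 mesenchyme alone can carry. The higher share thus partly follows from that choice and is no independent result. Of the 165 rises, 86 went further on mesenchyme 2, 9 on mesenchyme 1 and 70 were not called different. Of the 193 falls, 96 went further on mesenchyme 2, 16 on mesenchyme 1 and 81 were not called different. A difference that was not called does not show that the mesenchymes acted alike.

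Several rises that differed strongly between the mesenchymes had small steps on mesenchyme 1, among them Pga5 and Retreg1. Pga5, a pepsinogen gene of the stomach, read 191 and 184 in P0, 222 and 212 on mesenchyme 1 and 2539 and 2736 on mesenchyme 2 (0.21 and 3.81). Retreg1, a receptor for the degradation of endoplasmic reticulum, read 159 and 155, then 196 and 208, then 1376 and 1406 (0.36 and 3.15). Their groups did not overlap, but almost the whole change was on mesenchyme 2. Hnrnpa2b1, an RNA-binding protein, was the only named rise whose difference between mesenchymes was called in favour of mesenchyme 1, with 282 and 288, then 986 and 900.1, then 408 and 364; its second probe overlapped P0 and the mean of its probes was not called, at 0.53.

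Among falls, Trh, which encodes thyrotropin-releasing hormone, read 1696 and 1613, then 1260 and 1101, then 65.6 and 66.4 (-0.49 and -4.65). Prmt8, an arginine methyltransferase, read 190.2 and 188, then 177 and 174, then 8.57 and 10.4 (-0.11 and -4.32). Upp1, which splits uridine, differed by -0.26 and -3.84 from a P0 level of 4357, and Aldoc, an aldolase, by -0.62 and -3.62. In these 4 genes most of the change was on mesenchyme 2, although Trh and Aldoc also fell on mesenchyme 1 (adjusted p = 0.0076 and 0.00818).

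The opposite pattern was seen in Sct, the hormone gene secretin, with 442 and 478 in P0, 84.6 and 66.8 on mesenchyme 1 and 295 and 291 on mesenchyme 2 (-2.61 and -0.65). Hspb8, a small heat shock protein, read 165 and 153, then 33.8 and 32.3, then 121 and 115 (-2.27 and -0.43). Ly6g6e, a small membrane-anchored protein, differed by -1.89 and -0.49, and Pdgfb, a ligand of the PDGF receptors, by -1.91 and -0.25 with a mean of -0.99 without P0 replicate 2. These falls were carried by mesenchyme 1, and the mesenchyme 2 arrays lay below P0 by a smaller margin.

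Markers of other cells were read beside these changes because the P6 cells came from co-culture. Of 39 mesenchyme and fibroblast genes listed, 16 were measured, 6 lay above P0 (37.5%, against 17.0% of all features) and 3 below (18.8%, against 16.9%). Pdgfra, which is also on the parietal endoderm list, was the only 1 called. The summed intensity of the list was 5668 to 6042 in P0, 7586 to 8067 on mesenchyme 1 and 7841 to 8009 on mesenchyme 2, so it was higher in both passaged groups, and its part in the shared changes was not tested. Of 12 endothelial genes, 3 lay above P0 (25.0%, against 17.0% of all features) and 2 below (16.7%, against 16.9%). Those above were Sox7 and Esam, a junction protein, both called rises, and Tek (0.99 on the mean). Eng (-0.55) and Pecam1 (-0.34) lay below, and a second probe of Pecam1 overlapped P0 (0.20). The list summed to 2052 to 2121 in P0, 2349 to 2398 on mesenchyme 1 and 3555 to 3693 on mesenchyme 2. Of 23 blood and immune genes, 2 were measured and neither was a member. No value in the table is 0.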

How the data were processed

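Per the labels' protocols, total RNA of 6 samples was amplified by a TotalPrep kit and read on Illumina mouse bead arrays in 1 colour. The values are normalized intensities on a linear scale from the deposited value table, in which the authors kept 11097 of 25697 probes (43.2%). The submitters' processing notes name BeadStudio; how background, normalization and filter were handled is not given in the sources used here. The deposited scanner table was not used, since the names of its 12 columns match no sample label. Groups came from the sample titles.

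No further normalization, filter or offset was applied before log2. The platform annotation gave 10475 probes 1 symbol and 622 none, and 2007 genes with several probes were represented by the brightest, which left 8396 features. They were fitted with limma 3.58.1 in R 4.3.3 (lmFit, contrasts.fit, eBayes; 3 residual and 3.81 prior degrees of freedom), with both P6 groups weighted equally against P0. Two-sided p-values were adjusted over the 8396 features by the Benjamini-Hochberg method. The script was tested on simulated data.

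The members and the 33 gene lists were chosen with earlier results of these data known, and 22 lists are described. Genes are named by rule: the 15 called rises and 15 called falls with the largest smaller difference of both mesenchymes and a level of at least 100; up to 4 called rises and 4 called falls per list, or its 2 brightest members without overlap; Sox17; up to 5 per direction by the difference between mesenchymes; and every gene counted where the count was at most 5. Clones and predicted genes are not named. Genes outside the rule were chosen after their values were seen: these are the remaining called or opposite members of a list, the genes at the edge of the member rule, and Irf9, Stat2, Atf4, Hspa5, the synthetases, Atp5o and Ndufb4. Promoters are RefSeq sequences of GRCm38.p6 matched by symbol; the files name no build. The motifs and the promoters shown were chosen with the values known; a longer form of the interferon motif and an NRF1 motif were also searched and are not reported here. The number of arrays limits the precision. Alternatives were intensity offsets, other scalings, all probes of a gene, an intensity filter, an intensity trend, a test against 2-fold, the P6 arrays as 1 group, the replicate number as a block and leaving out each array.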

Additional observations from a re-analysis of the deposited data

Results flagged for a closer look

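Of the 83 named genes called as shared changes, 51 also differed between the mesenchymes by at least 2-fold at an adjusted p under 0.05 (limma; the largest of these adjusted p was 0.00813). They stand out because a change that both passaged cultures share in direction had a tested difference in size between them. Values in brackets are log2 differences, mesenchyme 2 minus mesenchyme 1, from 2 arrays per group, and the comparison uses no P0 array. Of all features, 25.4% differed by the same rule. Some of the 83 were named for the size of this very difference, and all were chosen through the passaged arrays. Their share therefore cannot be set against that of all features.

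In 21 rises mesenchyme 2 went further. These were Aqp8 (4.72), Gkn2 (4.52), Esam (3.64), Pga5 (3.60), Srgn (3.46), Retreg1 (2.79), Afp (2.72), Pdgfra (2.69), Ctsl (2.68) and Fst (2.54). The smaller differences were those of Nupr1 (2.41), Muc13 (2.36), Lama1 (2.33), Sox7 (2.32), Gata6 (2.28), Flrt3 (2.24), Amn (1.62), Ctsa (1.57), Dsg2 (1.44), Ankrd1 (1.42) and Vegfa (1.21). Among them are genes of parietal and visceral endoderm, of the stomach and of lysosomes. Hnrnpa2b1 (-1.29) was the 1 rise that went further on mesenchyme 1.

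In 19 falls mesenchyme 2 went further. These were Prmt8 (-4.21), Trh (-4.16), Upp1 (-3.59), Ccnd1 (-3.03), Aldoc (-3.00), Stmn2 (-2.71), Oasl2 (-2.33) and Khdc3 (-2.25). The smaller differences were those of Tfrc (-2.18), Eras (-2.09), Ifitm1 (-1.95), Gdf3 (-1.94), Ddx58 (-1.70), Gbp2 (-1.60), Oas1g (-1.43), Ifitm2 (-1.24), Tnfrsf19 (-1.10), Isg15 (-1.09) and Klf2 (-1.01). In 10 falls mesenchyme 1 went further: Nbl1 (2.10), Sct (1.96), Hspb8 (1.84), Pdgfb (1.66), Ly6g6e (1.40), Usp18 (1.40), Krt7 (1.38), Gata2 (1.32), Gata3 (1.26) and Dlx3 (1.23). This last set holds 5 genes of the trophoblast list, Sct, Krt7, Gata2, Gata3 and Dlx3, and the interferon-stimulated gene Usp18, while Isg15, Oas1g, Oasl2, Ifitm1, Ifitm2, Ddx58 and Gbp2 of the same interferon list went further on mesenchyme 2.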

How the results depend on the processing

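The mean difference of no named called gene reversed under any alternative, but with the mean of all probes 2 changes turned on 1 mesenchyme: Tfrc on mesenchyme 1 (-0.08 to 0.03) and Hnrnpa2b1 on mesenchyme 2 (0.43 to -0.01). Adding 16 to every intensity left 85 shared rises and 101 shared falls, of which 10 and 15 were 2-fold on each mesenchyme, and 124 that differed between the mesenchymes. With 50 added these counts were 51, 46, 1, 5 and 77. With the test made against a 2-fold change they were 48, 30, 18, 14 and 61. For features with a mean intensity of at least 50, 27 rises and 19 falls were 2-fold on each mesenchyme. With the 4 passaged arrays as 1 group all shared counts were 0: the spread then held the difference between the mesenchymes. Leaving out 1 array at a time gave 167 to 207 rises, 200 to 214 falls, 42 to 53 and 42 to 55 that were 2-fold on each mesenchyme, and 209 to 231 that differed between the mesenchymes. Median centring (153 rises, 208 falls), quantile normalization (167, 199) and the mean of all probes (163, 192) moved the counts little, and an intensity trend left them at 165 and 193.

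With the replicate number as a block in the fit, 165 rises, 193 falls, 41 and 44 2-fold on each mesenchyme, and 207 differing between mesenchymes were called, as without it. The numbers do not pair the arrays (correlations of duplicate differences of -0.003, -0.007 and 0.011).

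The text names 83 called genes, and 14 lost their call with an offset of 16, 43 with 50 added, 48 when tested against 2-fold, 5 with the mean of all probes (Mlec, Hnrnpa2b1, Ppp1r35, Tfrc and Vegfa), 2 after median centring (Dsg2 and Ddx58) and 2 after quantile normalization (Ddx58 and Flrt3). The added intensity moved the fold by over 1.5 times for 9 of the 83 with 16 added and 30 with 50 added. Without detection calls, changes that start or end at dim intensities cannot be told from background. With 1 culture per group, spread between cultures is not covered.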
